A study of Mus musculus castaneus and Mus musculus domesticus and Mus musculus with 11 samples.

Results

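Gene expression was compared between motor neuron cultures of a hybrid mouse line, CASTx129 (strain 129CAS in the labels), and those of 129S6/SvEv, called 129 here. The comparison used 6 of the 11 samples of the series, 3 of each line, and all 27071 genes of the count table, of which 14839 passed a filter on low counts. Both groups were motor neurons differentiated in culture from mouse stem cell lines, and no treatment, time point or sex is given for either. 129S6/SvEv is a laboratory inbred background, CAST/EiJ is a wild-derived strain of another mouse subspecies, and the hybrid carries genomes of both. The 3 libraries of CAST/EiJ with replicate numbers 1 to 3, called CAST here, entered the fit and are given where the hybrid is set beside both parental lines, and 2 further CAST samples were not analysed here. The labels do not tell if the 3 libraries per line are separate differentiations or clones, and a p-value here reflects the variation among libraries only, which may be technical.

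Spinal motor neurons arise from ventral progenitors under retinoic acid and sonic hedgehog, and are known by transcription factors such as Mnx1, Isl1 and Lhx3 and by genes of acetylcholine use such as Chat and Slc18a3. Further ventral lies the floor plate, whose cells carry Foxa2 and cilia. Motile cilia beat by means of radial spokes and dynein arms on the microtubules of the axoneme. Genes whose exons overlap an exon of another gene are described apart from the rest, because a read from a shared stretch can be given to either gene, to both or to none, and the hybrid differed from both parental lines there. The overlaps were taken from GENCODE vM21 on GRCm38.

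Sequences are shown for the genes where this matters most. Nme2, Rpl24 and Etfb each share coding bases with a predicted gene that spans them, Entpd4 has a near-identical copy, and the miRNA gene Mir692-1 carried many reads in 129 and none in the hybrid. Each coding stretch holds 120 bases read 5′ to 3′ on the gene's own strand, and capitals mark bases that lie in a run of at least 50 bases found unchanged in the other gene. The miRNA gene is printed whole, in lower case. Coordinates are on GRCm38, and the stretches of Rpl24, Etfb and Entpd4 span an intron, which is left out.
Nme2, coding bases 1 to 120, chr11:93955501-93955620, minus strand, against Gm20390: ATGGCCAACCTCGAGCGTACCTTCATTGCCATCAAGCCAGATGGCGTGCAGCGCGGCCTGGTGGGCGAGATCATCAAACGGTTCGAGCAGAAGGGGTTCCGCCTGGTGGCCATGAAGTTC
Rpl24, coding bases 335 to 454, chr16:55970117-55971371, plus strand, against Gm28037: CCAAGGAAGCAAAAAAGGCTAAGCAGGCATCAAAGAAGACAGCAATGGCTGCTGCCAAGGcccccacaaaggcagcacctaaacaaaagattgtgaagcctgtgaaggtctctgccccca
Etfb, coding bases 538 to 657, chr7:43456578-43457629, plus strand, against Gm45233: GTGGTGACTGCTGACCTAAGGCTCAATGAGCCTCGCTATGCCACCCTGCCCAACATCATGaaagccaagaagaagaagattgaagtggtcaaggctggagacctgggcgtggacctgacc
Entpd4, coding bases 1 to 120, chr14:69347587-69349184, plus strand, against Entpd4b: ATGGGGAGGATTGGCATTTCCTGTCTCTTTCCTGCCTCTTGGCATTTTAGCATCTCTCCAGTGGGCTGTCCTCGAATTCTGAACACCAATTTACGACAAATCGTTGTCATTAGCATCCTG
Mir692-1, chr17:6895229-6895337, minus strand: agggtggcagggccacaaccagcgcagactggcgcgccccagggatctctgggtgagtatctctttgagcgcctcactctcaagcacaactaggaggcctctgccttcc
Of the coding bases, all 456 in Nme2, 394 of 471 in Rpl24, 597 of 765 in Etfb and all 1839 in Entpd4 lay in such shared runs. In the windows of Rpl24 and Etfb the first 60 bases are shared.

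The libraries differed in depth and in a trend with transcript length. Total counts were 16763198 to 18167577 in 129 and 14502335, 7763077 and 12362162 in hybrid replicates 1, 2 and 3. Pairwise correlations of log2 expression ran from 0.946 to 0.978 within 129 and from 0.826 to 0.913 within the hybrid. Regressed on the log2 exon length of 9266 genes without exon overlap, each library's log2 level relative to the mean of all had a slope of 0.21, −0.57 and −0.15 in hybrid replicates 1, 2 and 3 and 0.22 to 0.28 in 129. Short transcripts therefore made up more of hybrid replicate 2 than of any 129 library. Among 500 variable genes with no exon overlap and no shared 50-base run, the first principal component held 42.4% of the variance and did not part the hybrid from CAST, and the second held 30.3% and had the hybrid libraries above all others.

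Over all tested genes, 803 were higher in the hybrid than in 129 and 238 were lower at an adjusted p under 0.05 by edgeR's quasi-likelihood test, which is 7.02% in all, 5.41% higher and 1.6% lower. The median log2 fold change was 0.02. Leaving out 1 library at a time, the total of 1041 fell to 522, 564 or 673 without 129 replicate 2, 3 or 1 and was 739 to 1120 without 1 hybrid library. Libraries of the 2 groups did not overlap in all 1041 called genes, and in 5560 genes or 37.5% of all tested. Most calls lay in genes with exon overlap. Of 1275 genes that overlap another gene on the same strand, 219 were higher (17.2%) and 51 lower, and of 4289 that overlap on the opposite strand only, 398 were higher (9.28%) and 80 lower. Of 9266 genes without overlap, 186 were higher (2.01%) and 99 lower (1.07%). With each of the 6 libraries left out in turn, the count of called genes without overlap ran from 83 (without 129 replicate 2) to 356 (without hybrid replicate 1), against 285 with all; it was 94 without 129 replicate 3, 146 without 129 replicate 1, 164 without hybrid replicate 3 and 172 without hybrid replicate 2. Without hybrid replicate 2 and CAST replicate 1 together, the pair with the steepest length trends, it was 469 (301 higher and 168 lower). With a term for exon length, 172 were higher and 162 lower, against 186 and 99. Of 11117 genes without overlap, DESeq2 called 566 higher and 302 lower, and limma-voom called 208 and 124 of 9266. The opposite-strand count of 478 was 253, 281 and 322 without 129 replicate 2, 3 and 1.

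The share of genes called higher in the hybrid was larger the more of a gene's exonic bases was overlapped. It was 4.12% with up to 10% of bases overlapped, 11.4% up to 25%, 19.4% up to 50%, 33% up to 75% and 71.9% above that. For same-strand and opposite-strand overlap the shares were 2.42% and 4.51% up to 10%, 10.7% and 11.5% up to 25%, 22.3% and 18.4% up to 50%, 31.2% and 34.6% up to 75%, and 75.7% and 64.5% above, a difference that was not tested. The share of lower genes went from 1.47% to 8.04% over the same classes. These shares depend on the filter: of 161 genes called higher in the top class, 103 had 0 counts in all 129 libraries and so passed it through the other lines, 94 of them through the hybrid alone. Among genes with at least 10 counts in each 129 library, a choice made after seeing the data that in turn favours genes high in 129, 0.982% were higher without overlap, 1.9%, 5.1%, 9.41% and 11.3% in the next classes, and 11.1% (6 of 54) in the top class, where 31.5% were lower. At the extreme, 113 genes had 0 counts in all 6 parental libraries and at least 10 in each hybrid library, and 106 of them have exon overlap. In the other direction, 58 genes had 0 counts in all hybrid libraries and at least 10 in each parental library; 31 of these have exon overlap, 25 have none and 2 have no annotation. The part of counting or annotation in these differences was not tested.

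**Figure D1:**
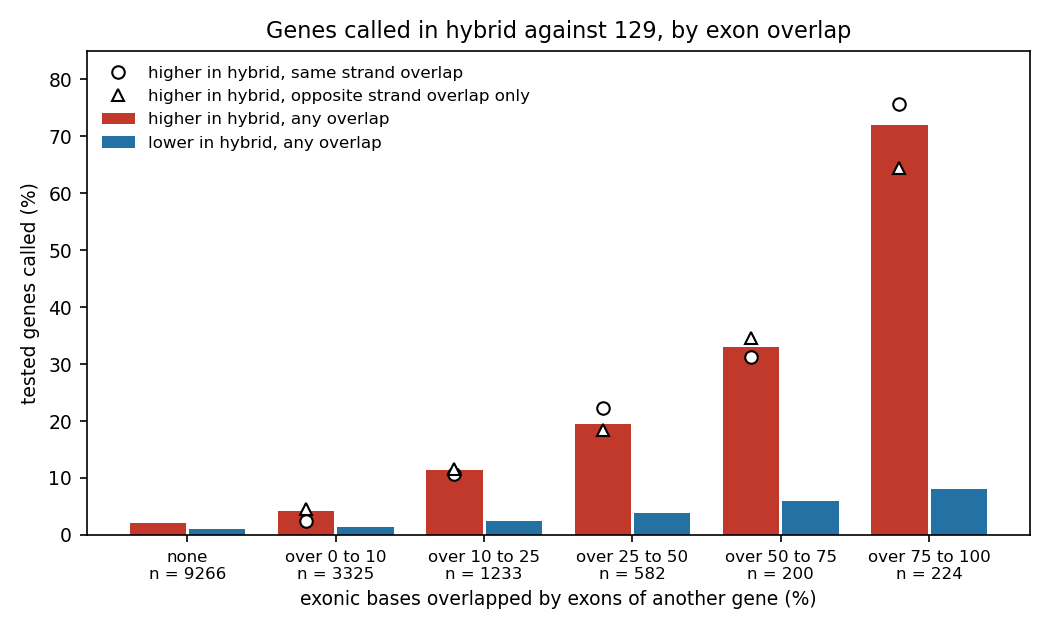
Percent of tested genes called higher (red bars) or lower (blue bars) in the hybrid than in 129, by the percent of a gene's exonic bases that exons of other genes overlap; circles and triangles give the share higher for same-strand overlap and for opposite-strand overlap only. The red bars go from 2.01% of 9266 genes without overlap to 71.9% of 224 genes overlapped over more than 75%, while the blue bars stay at 8.04% or less.

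Predicted genes that span a known gene led the same-strand class. Of 148 tested same-strand genes with more than 75% of bases overlapped, 112 were higher in the hybrid, and 81 of these had 0 counts in all 129 libraries. Of the 112, 75 had 0 counts in both parental lines and so passed the filter through the hybrid alone. Gm20390, which takes in Nme2 whole over its coding bases (the all-capital stretch above), had 0 CPM (counts scaled to a common library size) in each 129 and CAST library and 254, 1640 and 317 CPM in hybrid replicates 1, 2 and 3. Nme2, a nucleoside diphosphate kinase, stood at 0.115 to 0.671 CPM in 129 and at 0 in the hybrid. The sum of both genes was therefore under 1 CPM in each 129 library and at least 253.8 in each hybrid library. For Gm28037 the hybrid libraries had 46.7, 345 and 69.1 CPM against 0 in 129, while Rpl24, a ribosomal protein of the large subunit, had at most 0.183 CPM in 129. Gm45233 had 76.5, 233 and 81.8 CPM against 0, beside 0.915 to 1.67 CPM for Etfb, a subunit of the electron transfer flavoprotein, in 129. In these pairs the known gene is nearly empty in 129 as well, which did not hold throughout: of the 112 genes, 99 have a partner in the table, and the partner had a mean under 5 CPM in 129 in 53 and at least 5 CPM in 46. Counts in the 3 hybrid libraries were at least 9632-fold, 1995-fold and 1899-fold those in 129 for Gm20390, Gm28037 and Gm45233, with 0 counts in 129 set to 3 over the group. Gm20390, Gm28037 and Gm45233 had 0 counts in all parental libraries and passed the filter on low counts through the hybrid alone. Their being called higher is therefore no support.

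Named genes of the same-strand class showed both directions. Prn, a predicted joint gene of the prion locus whose bases are 96.9% overlapped, had 0 CPM in 129 and CAST and 307, 123 and 167 CPM in the hybrid. The prion protein gene Prnp itself had 181 to 485 CPM in 129 and 68.5 to 162 in the hybrid. Lime1, Rnaset2a, Mir686 and Eif3j2 were likewise at 0 in all 129 libraries and between 6.79 and 121 CPM in the hybrid. Prn, Lime1, Rnaset2a, Mir686 and Eif3j2 had at most 0.0561 CPM in any parental library and passed the filter on low counts through the hybrid alone. Their being called higher is therefore no support. Eif3j2, a nearly intronless copy of the translation initiation factor gene Eif3j1, shares 91.8% of its 50-base words with another gene. Eif3j1 went the other way, with 18.6, 20.8 and 25.7 CPM in 129 and 4.03, 1.12 and 4.61 in the hybrid. Myadm, a myeloid differentiation marker, had 330 to 572 CPM in 129 and 0 counts in the hybrid, although another gene overlaps only 5.27% of its bases. Tuba1b, an alpha-tubulin, had 62.3, 72.1 and 88.0 CPM in 129 and 0 in the hybrid, and its near copy Tuba1c had 50.7 to 53.3 and 29.3 to 69.2. Tbc1d22b, Vasn, Syngr2 and the stress transcription factor Ddit3 were also at 0 counts in all 3 hybrid libraries. These losses were bounded at 5794-fold or more for Myadm, 879-fold for Tuba1b and 325-fold for Ddit3, and all CAST libraries held over 10 CPM of Myadm, Tuba1b and Tbc1d22b.

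Genes overlapped on the opposite strand behaved in the same way. Entpd4, a Golgi nucleotidase, had 0 CPM in 129 and CAST and 56.7, 66.2 and 69.0 CPM in the hybrid. Its copy Entpd4b, with which it shares all of its 50-base words, had 18.4 to 21.7 CPM in 129 and 31.9 to 37.4 in the hybrid, so both copies had more reads there, with an adjusted p of 0.208 for Entpd4b. Cd72, a B cell surface protein, went from 0 to 25.5, 77.1 and 47.2 CPM, and Bricd5, Cdr1 and Tmem150b were at or near 0 in 129 too. Entpd4, Cd72, Bricd5, Cdr1 and Tmem150b had at most 0.167 CPM in any parental library and passed the filter on low counts through the hybrid alone. Their being called higher is therefore no support. Cdr1 lost its call without 129 replicate 1, 2 or 3 or hybrid replicate 3 (adjusted p 0.0759 to 0.0901 in edgeR). Among genes that fell, the geranylgeranyl diphosphate synthase gene Ggps1 had 52.0 to 73.3 CPM in 129, 0 in the hybrid and at most 0.112 in CAST. Ggps1 thus passed the filter on low counts through 129 alone. The mitochondrial phosphatase Pgam5 had 52.6 to 69.1 CPM and 0, and Zfp26 and the pseudouridine synthase Trub2 were at 0 in the hybrid as well. The mitochondrially encoded mt-Nd5, a subunit of complex I, had 75.1, 144 and 121 CPM in 129, 1076 to 1531 in CAST and 0 in the hybrid. Conversely mt-Cytb was at 0 in the 6 parental libraries and at 0.978 to 1.77 CPM in the hybrid, a rise that lost its call without 129 replicate 2 or 3 or hybrid replicate 3 (adjusted p 0.0551 to 0.0583). These are 2 of the 3 mitochondrially encoded genes tested, and mt-Cytb alone of them has no exon overlap. As mt-Cytb passed the filter on low counts through the hybrid alone, its being called higher is no support.

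**Figure D2:**
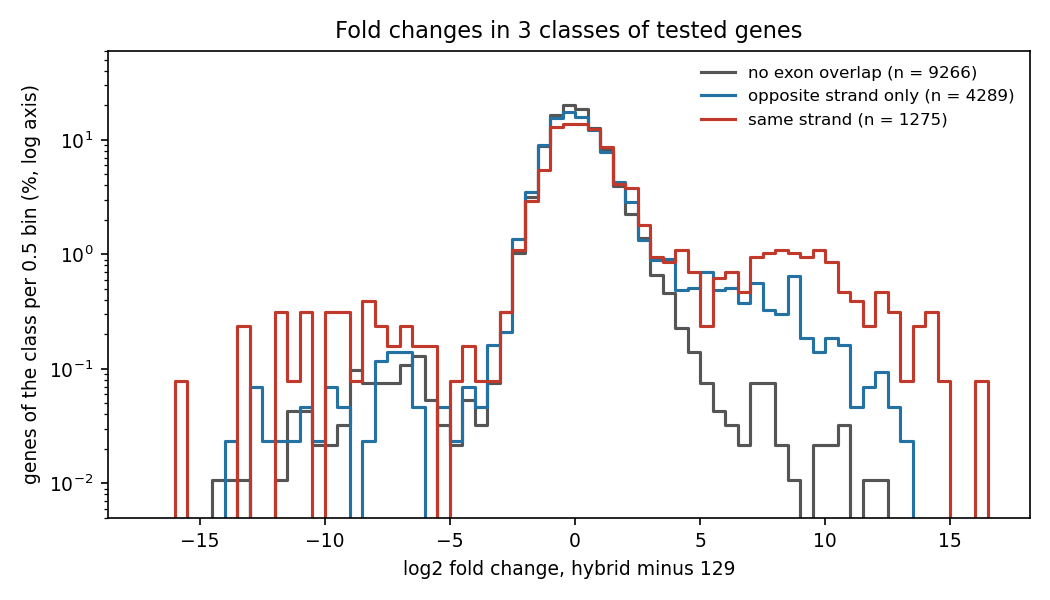
Log2 fold change of the hybrid against 129 in bins of 0.5, as the percent of genes in each of 3 classes on a log axis. Values beyond about 7 in size mostly have a group at 0 counts and depend on the prior count of the fit. The same-strand and opposite-strand classes carry an arm of large positive values that is thin in the 9266 genes without exon overlap.

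Genes without exon overlap are described in the rest of the text, except where an overlap is named. Counts of called list members stand beside 2.01% called higher and 1.07% called lower by edgeR over this class. Among the 186 that rose, 169 had counts in 129, with a median log2 fold change of 3.04. Another 10 had 0 counts in both parental lines and so passed the filter through the hybrid alone. Among the 99 that fell, 62 had 0 counts in all hybrid libraries, and the other 37 had a median of −1.98. How many of the 99 passed the filter through 129 alone was not counted. Of 5782 genes that in addition share no 50-base word with another gene, 145 rose and 44 fell. All 41 IDs of the table that the annotation lacks had 0 counts in the hybrid, while 30 of them had counts in a parental line.

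The largest rises without overlap came in genes that were low in both parental lines, which a choice by log2 fold change favours. Myo3a, an unconventional myosin of sensory hair cells, had at most 0.115 CPM in 129 and 177, 121 and 161 CPM in the hybrid (log2 fold change 10.80 ± 0.81 SE, adjusted p = 0.00024). Il4, the cytokine interleukin 4, had 0 counts in all parental libraries and 19.7, 7.82 and 24.8 CPM in the hybrid, at least a 335-fold rise. It passed the filter on low counts through the hybrid alone. Slc7a11, the cystine transporter of the integrated stress response, had 3.95, 7.62 and 9.997 CPM in 129, 0.206 to 13.4 in CAST and 235, 755 and 617 in the hybrid. Every hybrid library was above every parental one for these 3 genes. For Slc7a11 the log2 fold change was 6.22 ± 1.20, and its adjusted p was 0.0616 to 0.0721 without 129 replicate 1, 2 or 3 against 0.0127 with all libraries. It was the only called member among 19 of the list of integrated stress and unfolded protein response genes without overlap. Atp6v0c, a proton channel subunit of the vacuolar ATPase, had 4.45 to 8.10 CPM in 129, 11.1 to 23.3 in CAST and 212, 540 and 389 in the hybrid (5.90 ± 0.58, adjusted p = 0.0006 in edgeR). Shared 50-base words make up 10.8% of Atp6v0c. Slc23a1, a vitamin C transporter, rose from at most 0.23 to 14.0 to 18.7 CPM, and Rnf113a2 from 0 to 5.87 to 17.9. Tmem254c rose from 0 to 19.8 to 41.6 CPM, but every 50-base word of it occurs in another gene. The small heat shock protein gene Hspb1, 50.1% of whose words are shared, rose from under 1 CPM to 4.61 to 43.0. Mog, a myelin protein, had 0.556, 0 and 0 CPM in 129 and 13.1, 5.59 and 22.5 in the hybrid, and its call was lost without 129 replicate 2 or 3 or any 1 hybrid library (adjusted p 0.0505 to 0.11). Of the 7 oligodendrocyte and myelin genes without overlap, Mog alone had a positive log2 fold change, and the median was −1.58. DESeq2 did not call Mog and called 3 of the 7 lower, where it called 302 of 11117 genes without overlap lower. Rubcnl, an autophagy regulator, rose from 0.0575 to 1.11 CPM to 7.68 to 20.1, a call lost without 129 replicate 2 (adjusted p = 0.072). Rnf113a2 and Tmem254c had 0 counts in all parental libraries. They, Slc23a1, Hspb1, Mog and Rubcnl passed the filter on low counts through the hybrid alone, so their being called higher is no support.

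Genes of motile cilia had higher levels in the hybrid than in 129, and 3 passed the test. All 9 tested members of the motile cilia list without overlap had positive log2 fold changes, with a median of 2.41 against −0.03 over all 9266 such genes. Libraries did not overlap in 7 of the 9, where 16.3% of the class lay wholly higher in the hybrid. The 3 calls among the 9 stand beside 2.01% of the class called higher. The list was written with earlier results of these data known. Rsph1, a radial spoke head protein, had 8.005, 4.82 and 6.84 CPM in 129 and 34.8, 67.2 and 70.9 in the hybrid (log2 fold change 3.13 ± 0.49, adjusted p = 0.00471 in edgeR). Rsph9, a second spoke head protein, had 4.06, 3.60 and 2.93 CPM in 129 and 15.7, 91.7 and 44.3 in the hybrid (3.83 ± 0.74, adjusted p = 0.0131). Drc1, a subunit of the nexin-dynein regulatory complex, had 11.5, 6.95 and 6.89 CPM in 129 and 32.2, 44.7 and 57.9 in the hybrid (2.41 ± 0.55, adjusted p = 0.0302). Every hybrid library was above every 129 library for these 3 genes. Without 129 replicate 1, 2 or 3 in turn, 1 member remained called in each case, and without hybrid replicate 2 or 3 there were 2. Rsph1 kept its call in each of these fits, at an adjusted p of at most 0.0347, while Rsph9 (0.0562 to 0.0737) was lost without each 129 library and Drc1 (0.0656 to 0.149) was lost without each of those and without hybrid replicate 2 or 3.

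Other members of the list and other genes of the axoneme showed the same direction. Foxj1, the transcription factor of motile cilia, had 67.3, 17.6 and 14.995 CPM in 129 and 97.7, 62.2 and 148 in the hybrid (1.63 ± 0.82, adjusted p = 0.271), so 129 replicate 1 lay above hybrid replicate 2. Tekt1, a tektin of the microtubule inner surface, had 0.427 to 1.83 and 9.27 to 25.7 CPM (4.25 ± 1.14, adjusted p = 0.0592). The dynein heavy chain gene Dnah5, Ccdc40, Cfap44 and Cfap54 had log2 fold changes of 1.88, 1.01, 2.63 and 1.98, none past the threshold. After the values were seen, 20 further cilia or centriole genes without overlap were picked from those that rose, so their count is no support. They include Fam183b, Tekt4, Meig1, Ak8, Mlf1, Enkur, Wdr63 and Cfap206, and their log2 fold changes ran from 1.55 to 4.70. Fam183b had 2.81 to 5.73 CPM in 129, 1.22 to 2.53 in CAST and 17.97, 131 and 65.9 in the hybrid. Tekt4 had 0.172 to 0.945 CPM in 129, 0.723 to 2.13 in CAST and 5.09, 18.9 and 8.94 in the hybrid. Both calls were lost without 129 replicate 2, at an adjusted p of 0.0505 and 0.0598. In 13 of the 20 the highest hybrid library was replicate 2, the library rich in short transcripts.

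Against CAST the cilia genes gave no call. There, no member without overlap was past the threshold, and the median log2 fold change was 0.86. Rsph1 had 112.6, 69.0 and 40.7 CPM in CAST, a range that takes in 2 of the 3 hybrid libraries. Summed levels of the list were 50.9 to 122 CPM in 129 and 305 to 436 in the hybrid. Of the markers of astrocytes and radial glia, 10 members without overlap summed to 1352 to 3675 CPM in 129 and 3631 to 7366 in the hybrid, with none called by edgeR (DESeq2 called 3, limma-voom 1, and 4 had an unadjusted p under 0.05) and none of the list at 0 in all 6 libraries. Of these, Vim had 893 to 2576 CPM in 129 and 2452 to 4900 in the hybrid, and Fabp7 had 145 to 402 and 368 to 1076. Their part in the cilia result was not tested. In such bulk cultures, more cells of a type and more RNA per cell cannot be told apart.

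**Figure D3:**
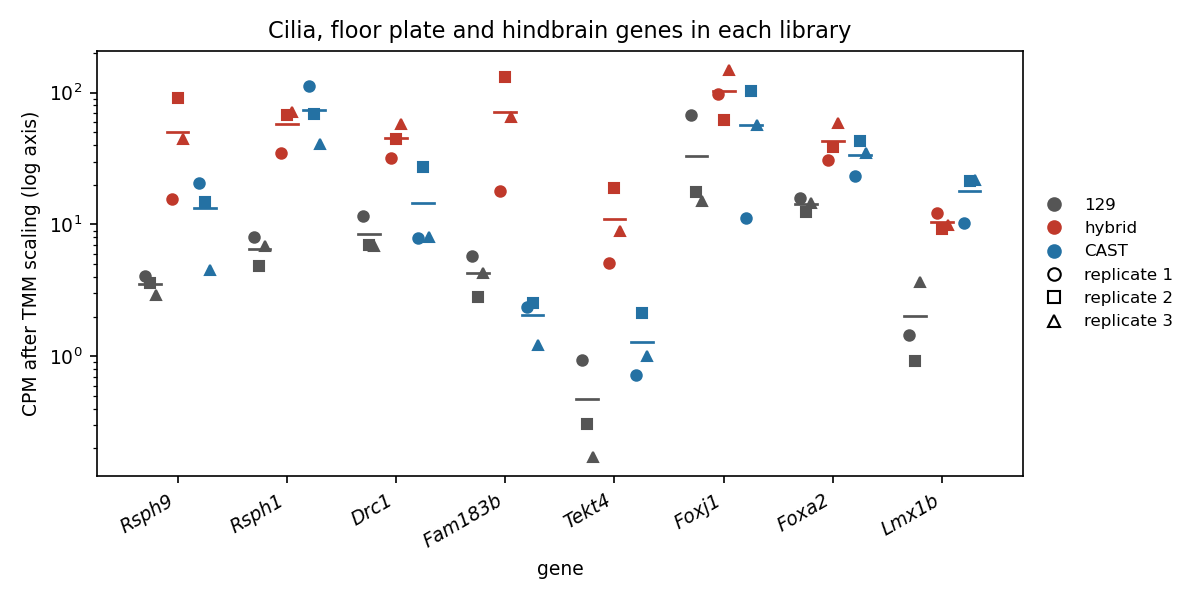
CPM after scaling, on a log axis, of 5 cilia genes, the cilia regulator Foxj1, the floor plate gene Foxa2, and Lmx1b in each of 9 libraries; symbols mark replicates and lines the mean of 3. For all genes shown but Foxj1 the 3 hybrid libraries (red) lie above the 3 libraries of 129 (grey).

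Ventral and hindbrain regulators differed in part. Foxa2, a forkhead factor of the floor plate, had 15.8, 12.5 and 14.5 CPM in 129, 30.8, 38.98 and 58.6 in the hybrid and 23.3 to 43.3 in CAST (log2 fold change 1.58 ± 0.37, adjusted p = 0.0309 in edgeR). Lmx1b, a factor of the roof plate and of serotonergic and dorsal neurons, had 1.45, 0.915 and 3.68 CPM in 129 and 12.3, 9.22 and 9.99 in the hybrid (2.38 ± 0.56, adjusted p = 0.033). In both genes the hybrid libraries were above those of 129 and overlapped with those of CAST, where Lmx1b had 10.2 to 21.6 CPM. Foxa2 lost its call without all but hybrid replicate 1 (adjusted p 0.0591 to 0.173) and Lmx1b without all but 129 replicate 3 (0.0606 to 0.134). Of the 11 ventral progenitor and floor plate genes without overlap, 2 were called higher, Foxa2 among them, and the median was −0.05. Over all genes without overlap, 2.01% were called higher. Shh, the floor plate signal, had 17.1 to 68.0 CPM in 129 and 2.24 to 36.1 in the hybrid (−0.81 ± 1.01, adjusted p = 0.619), and 28.3% of its bases are overlapped. Lmx1b was the 1 called member among 13 spinal interneuron and transmitter genes and also among 10 hindbrain motor and serotonergic genes. Summed levels of the floor plate list were 295 to 688 CPM in 129 and 263 to 697 in the hybrid, so its total did not separate the lines.

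Motor neuron genes were detected in both lines and none was called. Of 19 genes of spinal motor neuron identity, 18 were tested and 16 have no exon overlap; 3 of the 16 had an unadjusted p under 0.05, where 17.5% of all genes without overlap did, and the median log2 fold change was −0.77. DESeq2 called 2 of the 16 lower and limma-voom 0, where DESeq2 called 302 of 11117 genes without overlap lower. Isl1, a LIM homeobox factor, had 13.1, 30.6 and 62.7 CPM in 129 and 17.4, 19.98 and 27.9 in the hybrid (−0.70 ± 0.62, adjusted p = 0.49). Mnx1, the motor neuron homeobox factor, had 0.778, 2.99 and 4.88 CPM and 0.495, 2.51 and 2.03 (−0.80 ± 0.76, adjusted p = 0.52). Chat, which makes acetylcholine, had 5.84, 16.6 and 28.4 CPM and 8.28, 11.0 and 6.36 (−0.99 ± 0.56, adjusted p = 0.316). In these 3 genes 129 replicate 3 was the highest library and the groups overlapped. The vesicular acetylcholine transporter Slc18a3, in a first intron of Chat, had 23.5 to 90.3 CPM in 129 and 29.1 to 79.8 in the hybrid. Lhx3, with 6.17% of its bases overlapped on the opposite strand, and the progenitor factor Olig2 stayed under 5 CPM in all 6 libraries. Prph, the peripheral neurofilament protein, had 240 to 971 CPM in 129 and 317 to 1230 in the hybrid, and Ret, the GDNF receptor, 169.99 to 529 and 125 to 185. With an adjusted p of 0.237 for Ret and 0.691 for Prph, no difference was shown, and the standard errors of 0.46 and 0.84 leave room for changes of several fold.

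The spread within each line was wide for other cell types as well. The 13 fibroblast and mesenchyme genes without overlap summed to 4050 to 19259 CPM in 129 and 1631 to 19406 in the hybrid, and none was called by edgeR, DESeq2 or limma-voom (1 at an unadjusted p under 0.05). Col1a1, a fibrillar collagen, had 6499, 5030 and 1314 CPM in 129 and 8897, 808 and 311 in the hybrid. 129 replicate 3 and hybrid replicate 3 were the lowest of their groups in Col1a1. The summed level of the 16 motor neuron genes was 1525 to 2841 CPM in 129, highest there in replicate 3, and 1516 to 1750 CPM in the hybrid. Blood and microglia genes gave no test without overlap, with C1qa, C1qc, Hba-a1, Hbb-bs and Hbb-bt at 0 counts in all 6 libraries. Cx3cr1, a microglial receptor with 1.73% of its bases overlapped on the opposite strand, nevertheless went from at most 0.122 CPM in 129 to 35.3, 19.1 and 31.6 in the hybrid. It passed the filter on low counts through the hybrid alone.

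**Figure D4:**
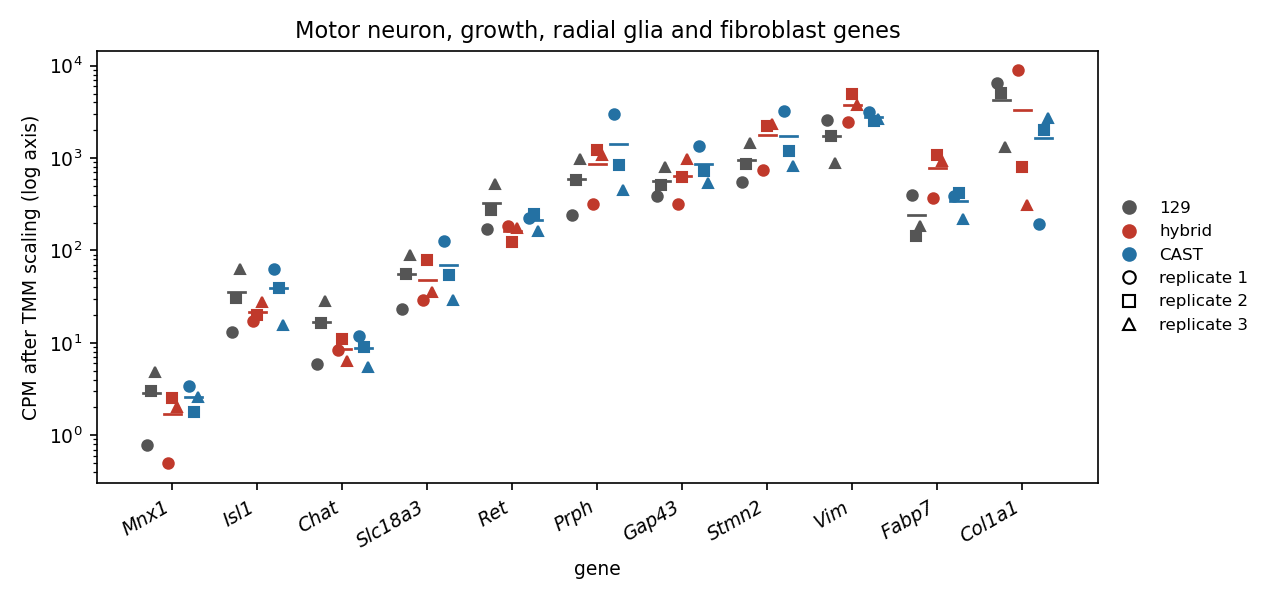
CPM after scaling, on a log axis, of motor neuron genes (Mnx1, Isl1, Chat, Slc18a3, Ret, Prph), growth genes (Gap43, Stmn2), radial glia genes (Vim, Fabp7) and the fibroblast gene Col1a1 in 9 libraries; symbols mark replicates and lines the mean of 3. The libraries of 129 (grey) and the hybrid (red) overlap in each gene shown, and Col1a1 spans 311 to 8897 CPM within the hybrid.

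Among genes of neurite growth, guidance and position, Hspb1 was the 1 call. The 20 growth-associated and axon injury genes without overlap, Hspb1 among them, had a median of −0.20. Gap43, a growth cone protein, had 392.2, 510 and 804 CPM in 129 and 319, 631 and 973 in the hybrid (0.17 ± 0.57, adjusted p = 0.861). Atf3, an injury-induced transcription factor, had 15.3 to 37.6 and 8.04 to 20.5 CPM, and Stmn2, a microtubule regulator of growing axons, 555 to 1462 and 749 to 2353. Inhba, the activin A subunit, had 191, 230 and 82.2 CPM in 129 and 205, 20.7 and 5.45 in the hybrid (−1.12 ± 1.22, adjusted p = 0.57). None of the 20 activin, TGF-beta and BMP signalling genes was called by edgeR (1 at an unadjusted p under 0.05, 1 lower by DESeq2), and the receptor Bmpr2 had 424 to 543 CPM in 129 and 324, 17.2 and 33.1 in the hybrid. Hybrid replicate 1 was near 129 in Inhba and Bmpr2, and hybrid replicates 2 and 3 were far below.
Of 33 axon guidance genes without overlap, 7 had positive log2 fold changes, 0 were called, 7 had an unadjusted p under 0.05 (17.5% over the class), DESeq2 called 2 lower, and the median was −1.12. The guidance cue Ntn1 had 380 to 1037 CPM in 129 and 127 to 1346 in the hybrid. The 14 axonal cytoskeleton genes (median −0.96), the 14 synaptic vesicle genes (−0.63) and the 18 ion channel genes (−1.12) gave 0 calls, with 1, 1 and 3 at an unadjusted p under 0.05 and 0, 1 and 1 called lower by DESeq2. Map1b, a microtubule-associated protein of axons with a long transcript, had 2326 to 5903 CPM in 129 and 553 to 2369 in the hybrid, lowest in replicate 2. Kif5a, an axonal kinesin, had 499.6 to 1325 and 249 to 659 CPM. Among Hox genes, the abundant Hoxa5, Hoxb4, Hoxb6 and Hoxb8 had log2 fold changes of 0.38, 0.65, 0.70 and −0.02, with overlapping libraries and no call. Of 12 posterior Hox genes (paralogues 6 to 13) without overlap, 2 were positive and 0 called by edgeR, with a median of −0.67. All 3 anterior ones (paralogues 1 to 5) were positive and 0 called, with a median of 0.65.

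Several genes without overlap fell in the hybrid to about the level of CAST. Grb10, an imprinted adaptor that restrains insulin signalling, had 384, 458 and 259 CPM in 129, 81.2, 32.8 and 105.5 in the hybrid and 34.9 to 84.3 in CAST (log2 fold change −2.33 ± 0.54, adjusted p = 0.0319 in edgeR). Kcnk9, an imprinted potassium leak channel, had 41.2, 71.5 and 138 CPM in 129, 8.42, 6.01 and 16.4 in the hybrid and 2.06 to 12.97 in CAST (−3.02 ± 0.74, adjusted p = 0.0403). These were the 2 called members of 19 imprinted genes without overlap, with a median of −0.61, where 1.07% of all genes without overlap were called lower. Grb10 lost its call without any 1 of the 6 libraries (adjusted p 0.055 to 0.124), and Kcnk9 without any but 129 replicate 1 (0.0624 to 0.146). Of 18 imprinted genes with exon overlap, 4 were called higher (Snrpn, Commd1, Copg2 and Rtl1) and Igf2 lower, while 11.1% of all genes with overlap were called higher and 2.35% lower. Snrpn, a splicing protein gene, had 51.5 to 141 CPM in 129 and 324 to 1028 in the hybrid (2.97 ± 0.70, adjusted p = 0.0345), a call lost without any but hybrid replicate 1 (0.0717 to 0.159). Igf2, a fetal growth factor, had 1701, 1437 and 555 CPM in 129, 77.7, 99.1 and 25.9 in the hybrid and 12.2 to 25.3 in CAST (−4.19 ± 0.70, adjusted p = 0.00658), and 64.5% of its bases are overlapped.

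Genes outside the imprinted list had the same order, and those that follow were chosen after their values were seen. Gldn, the gliomedin of nodes of Ranvier, had 57.0 to 71.8 CPM in 129, 10.6 to 24.0 in the hybrid and 10.7 to 14.2 in CAST (−1.83 ± 0.36, adjusted p = 0.0141). Rab27b, a GTPase of secretory vesicles, had 59.4 to 62.5 CPM in 129, 8.10 to 25.2 in the hybrid and 6.40 to 16.1 in CAST (−1.97 ± 0.48). Akap5, a scaffold for protein kinase A, had 30.5 to 57.7, 4.33 to 11.1 and 2.48 to 11.7 CPM in the same order. Egln1, the prolyl hydroxylase that senses oxygen, had 66.1 to 78.4 CPM in 129, 30.9 to 35.3 in the hybrid and 22.6 to 29.6 in CAST (−1.13 ± 0.28). In all 4 genes the hybrid libraries were below each 129 library. Rab27b, Akap5 and Egln1 were called at adjusted p values of 0.0401, 0.0387 and 0.0424. Without 1 library, Gldn lost its call for 129 replicate 2 or 3 or hybrid replicate 3 (adjusted p up to 0.0622), Rab27b for all but hybrid replicate 1 (up to 0.137), and Akap5 and Egln1 for any of the 6 (up to 0.13 and 0.162).

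In a few genes the hybrid lay between widely separated parental lines. Igsf23, an immunoglobulin superfamily gene, had 9.56, 12.4 and 11.7 CPM in 129, 0.849, 0.559 and 0.349 in the hybrid and 0 in CAST (−4.24 ± 0.53, adjusted p = 0.00321). Nxf3, an X-linked RNA export factor gene, had 4.84, 10.7 and 20.6 CPM, 0.425, 1.26 and 0.419, and 0.103 to 0.225 in CAST. Hybrid minus CAST was 6.09 ± 0.95 for Igsf23 (adjusted p = 0.00837 in edgeR) and 1.95 ± 0.80 for Nxf3 (0.261). Nxf3, with 21 counts over the hybrid libraries, was thus not shown to differ between the hybrid and CAST. Both calls against 129 held without each of the 6 libraries, but both genes passed the filter on low counts through 129 alone. Tas1r1, an umami taste receptor subunit chosen after its values were seen, had 0.061 to 0.389 CPM in 129, 1.26 to 4.12 in the hybrid and 44.1 to 53.9 in CAST (3.78 ± 0.65, adjusted p = 0.00732). Aldh3a1, an aldehyde dehydrogenase likewise chosen afterwards, had 0.172 to 0.334, 0.637 to 4.47 and 15.7 to 31.4 CPM. In Tas1r1 the hybrid was much nearer to 129 than to CAST on the CPM scale. Aldh3a1 lost its call without any but hybrid replicate 1 (adjusted p 0.0541 to 0.0947, against 0.0182).

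Other genes fell in the hybrid below both parental lines, or to 0 counts where CAST too was below 129. Usp8, an endosomal deubiquitinase chosen after its values were seen, had 111 to 127 CPM in 129, 104 to 123 in CAST and 57.1, 32.4 and 43.8 in the hybrid (−1.42 ± 0.32, adjusted p = 0.0269). Its call was lost without any library but hybrid replicate 1 (adjusted p 0.0724 to 0.122). Tent2, a cytoplasmic poly(A) polymerase, had 19.6 to 20.8 CPM in 129, 23.5 to 35.0 in CAST and 3.54, 1.82 and 1.40 in the hybrid (−3.16 ± 0.42, adjusted p = 0.00201). Myh3, the embryonic myosin heavy chain, had 18.4, 6.10 and 7.53 CPM in 129, 4.38 to 6.88 in CAST and 1.70, 1.68 and 1.19 in the hybrid, and it was the 1 called member of 7 muscle genes (adjusted p = 0.0106, 0.0516 without hybrid replicate 3). The hybrid was below every library of both parental lines in Usp8, Tent2 and Myh3.
Akr1b3, an aldose reductase, had 55.9 to 89.9 CPM in 129, 56.9 to 205 in CAST and 0 counts in the hybrid, a fall of at least 862-fold. The related gene Akr1b8 had 38.5 to 47.7 CPM in 129 and 33.5 to 143 in the hybrid. Tfb2m, the mitochondrial transcription factor B2, Zfp65 and Zxdb had 9.51 to 19.02 CPM in 129 and 0 in the hybrid. Mir692-1 had 107 to 205 in 129 and 0 in both other lines. Nutf2-ps1, 96.1% of whose words occur in another gene, had 20.8 to 24.5 CPM in 129 and 0 in the others. Mir692-1, Nutf2-ps1, Zfp65 and Zxdb passed the filter on low counts through 129 alone. Their being called lower is therefore no support. The sequence of Mir692-1 is printed above, and 6.67% of its words occur in another gene.

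**Figure D5:**
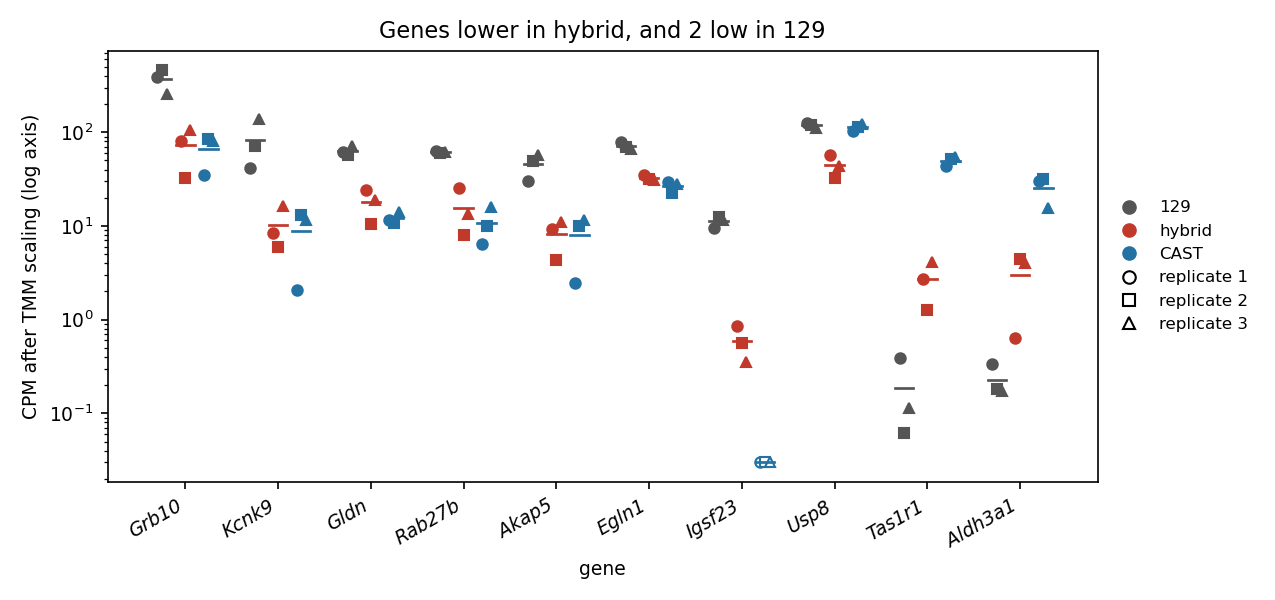
CPM after scaling, on a log axis, of 8 genes lower in the hybrid than in 129 and of Tas1r1 and Aldh3a1, in 9 libraries; symbols mark replicates, lines the mean of 3, and open symbols at the lower edge libraries with 0 counts. The hybrid (red) lies near CAST (blue) in Grb10, Kcnk9, Gldn, Rab27b, Akap5 and Egln1, between the lines in Igsf23, Tas1r1 and Aldh3a1, and below both in Usp8.

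Beta protocadherins without overlap, adhesion proteins that give neurons a surface identity, had lower levels in the hybrid, and 2 were called. Over all genes without overlap, 1.07% were called lower. All 17 beta protocadherins without overlap had negative log2 fold changes, with a median of −1.71; libraries lay wholly lower in 14, where the share over the class was 16.1%. Pcdhb17 had 22.01, 29.8 and 40.04 CPM in 129 and 8.35, 2.24 and 5.31 in the hybrid (−2.51 ± 0.60, adjusted p = 0.0367 in edgeR). Pcdhb15, which passed the filter on low counts through 129 alone, had 2.17, 5.18 and 6.15 CPM and 0 in the hybrid. Both were lost in fits without 1 library, Pcdhb15 for any of the 6 (adjusted p 0.0585 to 0.107) and Pcdhb17 for all but hybrid replicate 1 (0.0631 to 0.13). Summed over the 17, levels were 155 to 346 CPM in 129 and 95.8, 28.6 and 69.9 in the hybrid, lowest in replicate 2. With the replicate left out the median was −1.39, and with a term for exon length −1.64. Of 34 clustered protocadherins with exon overlap, 1 was called higher and 1 lower, with a median of −1.03. Over all genes with overlap, 11.1% were called higher and 2.35% lower.

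Ribosomal protein genes had positive log2 fold changes without a call. All 19 without overlap were positive, with a median of 2.30, 10 had an unadjusted p under 0.05, 0 passed the adjusted threshold in edgeR and 7 did in DESeq2. Over all 11117 genes without overlap, DESeq2 called 566 higher. Rplp0, of the ribosomal stalk, had 695, 707 and 472 CPM in 129 and 938, 9730 and 1281 in the hybrid, and Rps14, of the small subunit, 357, 327 and 233 and 531, 5200 and 870. The list summed to 4387 to 5753 CPM in 129 and 7187, 60965 and 10588 in the hybrid, so replicate 2 was the highest by far. Without it the median was 0.77, and with a term for exon length 1.11. Nuclear respiratory chain genes were alike, 17 of 17 positive with a median of 1.16, 0 called by edgeR, 1 by DESeq2 and 4 at an unadjusted p under 0.05. The summed level was 2292 to 2483 CPM in 129 and 2492, 9215 and 4170 in the hybrid. The median was 0.51 without hybrid replicate 2 and 0.04 with a term for exon length, where 10 of 17 were positive. For the cilia list the same fits gave medians of 2.42 and 2.59, for axon guidance −0.70 and −0.38.

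Stress and interferon genes gave single calls of both signs. Of 10 heat shock genes without overlap, Hspb1 was higher and Hspa1b lower, the latter with 0.549 to 1.38 CPM in 129, 7.80 to 15.2 in CAST and 0 in the hybrid; 62.3% of its words occur in another gene. Of 17 interferon-stimulated genes, Ifitm1 was called higher, with 0.305 to 1.39 CPM in 129 and 2.12, 51.8 and 9.43 in the hybrid, and Isg15 lower, with 2.01 to 6.28 CPM in 129 and 0. Ifitm1 rested on hybrid replicate 2 for its level: without it, or without any 129 library, the adjusted p was 0.0816 to 0.152. Isg15 lost its call without any 1 of the 6 libraries (0.0668 to 0.106). Sod3, the extracellular superoxide dismutase, chosen after its values were seen, had 18.4 to 46.1 CPM in 129, 49.0 to 103 in CAST and 109 to 222 in the hybrid (2.38 ± 0.52, adjusted p = 0.0232, and 0.0811 to 0.134 without 129 replicate 2 or 3 or hybrid replicate 3). Of 8 histone genes without overlap, Hist1h4c was called lower, at 0.689 to 0.889 CPM in 129 and 0 in the hybrid (adjusted p 0.0332, and 0.0594 to 0.131 without 129 replicate 3 or hybrid replicate 1 or 3). Hist1h4c, at 0 in CAST too, passed the filter on low counts through 129 alone, so its being called lower is no support.

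By chromosome, among genes without overlap, median log2 fold changes ran from −0.32 on chromosome 18 (259 genes, 3 higher and 6 lower) to 0.21 on chromosome 17 (370 genes, 13 higher and 11 lower, the largest share called). On chromosome 17, 3.51% were higher and 2.97% lower, against 2.01% and 1.07% over all genes without overlap.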

How the data were processed

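RNA selected for poly-A was sequenced from 9 libraries, 3 per line. The submitters' processing notes name STAR and mm10. The tool, annotation and strand used for counting were not given in the sources used here. Counts were deposited by the authors as whole numbers of reads per Ensembl gene with no normalization. Genes passed filterByExpr of edgeR 4.0.16 (minimum count 10, total 15, proportion 0.7). They were scaled by TMM and tested by the robust quasi-likelihood method (R 4.3.3), 9 libraries in 1 model, with Benjamini-Hochberg adjustment over 14839 genes; p-values are two-sided. DESeq2 1.42.0 and limma 3.58.1 were alternatives. CPM use TMM-scaled library sizes, and standard errors (SE) come from the F statistic. Exon overlaps, symbols, coordinates and 50-base words come from GENCODE vM21, which need not be the annotation used for counting; without the strand setting, reads of overlapping genes cannot be told apart. For fold bounds a group at 0 was set to 3 counts over the group, which covers counting error only.

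Among called genes with a mean of at least 5 CPM and libraries that did not overlap, the text names the 10 largest changes per direction without exon overlap and 5 per direction in each overlap class, leaving out predicted genes. It also names up to 3 called members per direction of each list, or the 2 most abundant, and set motor neuron and growth genes; some genes that meet this rule are not reported here. Predicted genes, copies, partners and genes said to be chosen afterwards fall outside it. The members and the 45 lists were chosen with earlier results of these data known. The test was checked only on counts simulated from its own fitted model. These held no length trend and no effect of exon overlap, so the check does not bear on either.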

Additional observations from a re-analysis of the deposited data

How the results depend on the processing

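The count of 1041 called genes was 2082 by DESeq2 (1035 of the 1041 among them), 561 with a replicate block, and between 522 and 1120 with 1 library left out; the other alternatives gave 1043 to 1467. For genes without exon overlap, 285 became 868 by DESeq2, 97 with the replicate block, 469 without hybrid replicate 2 and CAST replicate 1 together, 471 when only overlaps of at least 10% of bases were set apart, 189 for genes without a shared 50-base word, and 83 to 356 with 1 library left out. The same-strand count of 270 was 167 with the replicate block and 180 to 264 with 1 library left out. The opposite-strand count of 478 was 816 by DESeq2, 293 with the replicate block and 253 to 492 with 1 library left out. Members of the cilia list called (3) were 6 with only the 129 and hybrid libraries, 5 by DESeq2 and without hybrid replicate 2 and CAST replicate 1, and 1 to 3 with 1 library left out. Of the motor neuron genes (0), 2 were called lower by DESeq2 and 0 to 1 with 1 library left out. The causes were not tested.

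The labels state no pairing of same-numbered libraries, so the main fit had no replicate block. The correlation of their deviations was 0.19, 0.01 and 0.49 for replicates 1, 2 and 3. Differently numbered pairs were not computed, so a shared batch was not tested. With the block, 24 of 76 named called genes lost their call. Of these 76, 42 were called in all 6 fits without 1 library, 41 in every alternative, and none changed direction. Among 28 named genes not called, 7 changed sign somewhere. With 1 library left out, log2 fold changes ran from −0.78 to 0.28 for Slc18a3, −0.28 to 0.49 for Gap43, −0.31 to 0.52 for Hoxb8, −3.01 to 0.18 for Col1a1 and −0.49 to 0.81 for Ntn1. With the exon length term they were −0.69 for Gap43, −0.25 for Prph and −0.30 for Hoxa5. Hoxb8 was at 0.0047 with TMM from genes without overlap, 0.10 by limma-voom and 0.0114 with the replicate block; Ntn1 was at −0.24 by limma-voom, and Col1a1 at 0.10 without hybrid replicate 2 and CAST replicate 1.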

Other observations

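Lists not described above gave 0 calls among genes without exon overlap by edgeR. The largest medians among those of at least 10 genes were 0.75 for 11 Notch and proneural genes (4 at an unadjusted p under 0.05 and 1 called by DESeq2) and 0.53 for 16 cell cycle genes (4 and 1), and −0.92 for 18 extracellular matrix genes (0 and 0). The cell cycle list summed to 208 to 339 CPM in 129 and 317 to 366 in the hybrid. The matrix list summed to 6050 to 12567 CPM in 129 and 12888, 3914 and 2801 in the hybrid, so hybrid replicate 1 stood with 129.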
